A study of Mus musculus with 6 samples.

Results

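The Hippo pathway and YAP target genes examined here were a fixed set of 10: *Yap1*, *Wwtr1*, *Tead1*, *Tead4*, *Lats1*, *Lats2*, *Ctgf*, *Cyr61*, *Ankrd1* and *Amotl2*. They were found by symbol among 37753 table entries that hold expression values, and each symbol stood on 1 entry. Each of the 10 was among the 12461 entries with a mean of at least 1 FPKM, the number of sequenced fragments scaled to transcript length and library size, which were the entries tested. RNA was sequenced from primary cultures of mammary epithelial cells (MEC, 3 preparations) and from breast tumor cell lines (MEKO, 3 lines), with 1 library for each. The MEC carried the genotype WAPCre+, and each preparation pooled the glands of 3 to 5 virgin C57/Bl6J females aged 10 to 12 weeks. They were grown on collagen I in medium with EGF and insulin. The MEKO lines, numbered 199, 233 and 336, carried the genotype Mapk8KO Mapk9KO Cre+ on the same strain and came from dispersed tumors. They were kept on collagen for 2 passages, then moved to standard dishes. *Mapk8* and *Mapk9* encode the JNK1 and JNK2 kinases. In this model the Wap promoter drives Cre in luminal cells on lactation, so the virgin donors of the MEC carried the transgene before it is induced, while the tumors arose in parous females. For the medium of the tumor lines the study's methods list fetal bovine serum, and neither EGF nor insulin. Genotype, tumor origin, parity, donor age, culture medium, growth surface and time in culture changed together between the groups. Their effects cannot be told apart.

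The Hippo pathway is a kinase cascade that limits tissue growth. MST kinases activate LATS1 and LATS2, which phosphorylate the coactivators YAP (*Yap1*) and TAZ (*Wwtr1*) and so keep them out of the nucleus. YAP and TAZ that reach the nucleus bind TEAD transcription factors and switch on target genes, among them *Ctgf*, *Cyr61*, *Ankrd1* and *Amotl2*. Much of this control acts on proteins: mRNA levels measure the transcripts of the components, not the phosphorylation or location of YAP and TAZ. In the mammary gland the pathway is known for its part in the balance of luminal and basal cell fates.

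TEAD factors recognise the letters GGAATG, and promoters of the set were examined for these letters on both strands. RefSeq gave 9 start sites for 7 of the 10 genes on GRCm38.p6, and the 250 bases before each start were searched. *Ctgf*, *Tead1* and *Tead4* had no entry. A match was found for 5 of the 7 genes, *Amotl2*, *Ankrd1*, *Cyr61*, *Wwtr1* and *Yap1*, and for neither *Lats1* nor *Lats2*. Of all 32851 windows of the same length, 12.6% held a match. The AP1 letters TGANTCA were in none of the 7 genes and in 6.75% of all windows, and the CArG box of serum response factor was in none and in 1.47% of all windows. These are letter matches and not measured binding sites, and the targets were placed in the set because they are known TEAD targets. The windows of 3 target genes and of the coactivator gene *Wwtr1* are shown because the results below turn on these genes. Each reads 5′ to 3′ on the strand of the gene and ends at the last base before the start, with the TEAD letters in capitals.

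Cyr61, chr3:145649986-145650235, minus strand, match ending 98 bases before the start: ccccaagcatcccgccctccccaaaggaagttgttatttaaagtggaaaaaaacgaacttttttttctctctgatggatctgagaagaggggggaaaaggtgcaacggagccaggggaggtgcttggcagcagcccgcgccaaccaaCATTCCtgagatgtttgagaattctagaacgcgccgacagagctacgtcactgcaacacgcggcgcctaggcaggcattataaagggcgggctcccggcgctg
Ankrd1, chr19:36119845-36120094, minus strand, matches ending 205 and 118 bases before the start: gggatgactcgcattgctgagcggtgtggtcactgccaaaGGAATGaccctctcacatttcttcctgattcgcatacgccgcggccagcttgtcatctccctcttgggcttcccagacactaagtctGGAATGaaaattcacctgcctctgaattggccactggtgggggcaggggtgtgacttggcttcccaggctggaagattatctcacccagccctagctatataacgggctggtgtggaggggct
Amotl2, chr9:102717554-102717803, plus strand, match ending 60 bases before the start: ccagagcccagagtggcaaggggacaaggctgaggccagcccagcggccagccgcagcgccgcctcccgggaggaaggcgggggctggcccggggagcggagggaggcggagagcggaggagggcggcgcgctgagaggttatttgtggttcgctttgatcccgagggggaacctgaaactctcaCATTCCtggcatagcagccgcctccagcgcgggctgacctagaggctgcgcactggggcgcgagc
Wwtr1, chr3:57575911-57576160, minus strand, match ending 131 bases before the start: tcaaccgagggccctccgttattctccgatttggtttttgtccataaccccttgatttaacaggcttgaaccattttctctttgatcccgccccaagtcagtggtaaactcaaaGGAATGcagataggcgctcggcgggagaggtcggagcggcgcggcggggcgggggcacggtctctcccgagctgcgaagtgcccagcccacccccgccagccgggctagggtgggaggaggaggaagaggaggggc

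In *Cyr61* and *Amotl2* the letters read CATTCC, since the match lay on the other strand, and *Ankrd1* was the gene of these with 2 matches. The 2 listed starts of *Wwtr1* lie close together and their windows hold the same match.

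The libraries were first examined for what they share. Pearson correlations across genes were 0.944 to 0.966 among MEC, 0.856 to 0.903 among MEKO and 0.793 to 0.855 between the groups, so the lines differed more among themselves than the MEC did. The sum of FPKM was between 557991 and 638365, and the depth of each library is unknown. No label gave a date or batch. *Mapk8* was 23.1, 25.1 and 19.2 FPKM in MEC and 5.93, 3.12 and 1.37 in lines 199, 233 and 336. *Mapk9* was 24.4, 21.5 and 22.1 FPKM in MEC and 7.62, 3.15 and 3.07 in the lines. Both were lower in every line. The labels give both genes as knocked out, and line 199 still held 26.4% of the MEC mean for *Mapk8* and 33.6% for *Mapk9*. These are RNA values over whole genes, and the study's mice carried LoxP alleles of both. Whether the remaining RNA came from exons outside the deleted part was not tested. The study's immunoblot found no JNK protein in the MEKO tumor cells it examined. Cell type markers also differed. The summed FPKM of 9 luminal markers was 6201 to 10210 in MEC and 987 to 3020 in MEKO, with *Krt18* and *Krt8* the largest. Of 8 tested, 6 were lower without overlap, beside 18.7% of all tested entries. Among them *Elf5*, a luminal progenitor factor, was at most 0.461 in MEKO. *Esr1* and *Krt7* overlapped: the means of *Esr1* were 2.65 in MEC and 2.68 in MEKO, and *Krt7* in line 233 was 1054, within the MEC range. The summed FPKM of 8 myoepithelial markers was 1558 to 2855 in MEC and 2276, 10.6 and 58.7 in lines 199, 233 and 336. The summed FPKM of 9 fibroblast markers was 118.5 to 208.1 in MEC and 1111, 2.45 and 4.23 in these lines, and the collagen genes *Col1a1* and *Col1a2* made up most of the value in line 199. Members of both lists went each way in line 199. There *Krt5* was 608 FPKM and *Myh11* 0.0812, beside 201 to 435 and 22.4 to 41.8 in MEC. *Col1a1* was 600 FPKM and *Dcn* 0.311, beside 44.2 to 74.7 and 3.29 to 6.62 in MEC. Endothelial markers summed to at most 19.7 FPKM in any library. Leukocyte markers summed to at most 8.12 in MEC and to 0.787, 2.75 and 23.5 in lines 199, 233 and 336, with *Cd68* the largest. The part of these differences in the results that follow was not tested.

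Among the 10 genes, *Wwtr1* alone passed the test between MEKO and MEC. It was lower, and no gene of the set passed as higher. The test was limma on log2(FPKM + 1), with Benjamini-Hochberg adjustment over the 12461 entries, and a call needed an adjusted p under 0.05 and a log2 fold change beyond 0.75. By that rule 7.26% of all tested entries were called lower and 2.64% higher, so 1 of 10 is near the background. At an unadjusted p under 0.05, 4 of the 10 genes were lower and 2 were higher, beside 15.7% and 12.4% of all tested entries. In *Wwtr1*, *Lats2*, *Ctgf* and *Cyr61* each MEKO library was below each MEC library, which held for 18.7% of all tested entries. In *Tead4* and *Amotl2* each MEKO library was above each MEC library, which held for 18.5%. The other 4 genes overlapped. The log2 fold change was below 0 in 7 of the 10 genes, with a median of -0.40, beside 48.8% below 0 and a median of 0.01 over all tested entries.

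**Figure D1:**
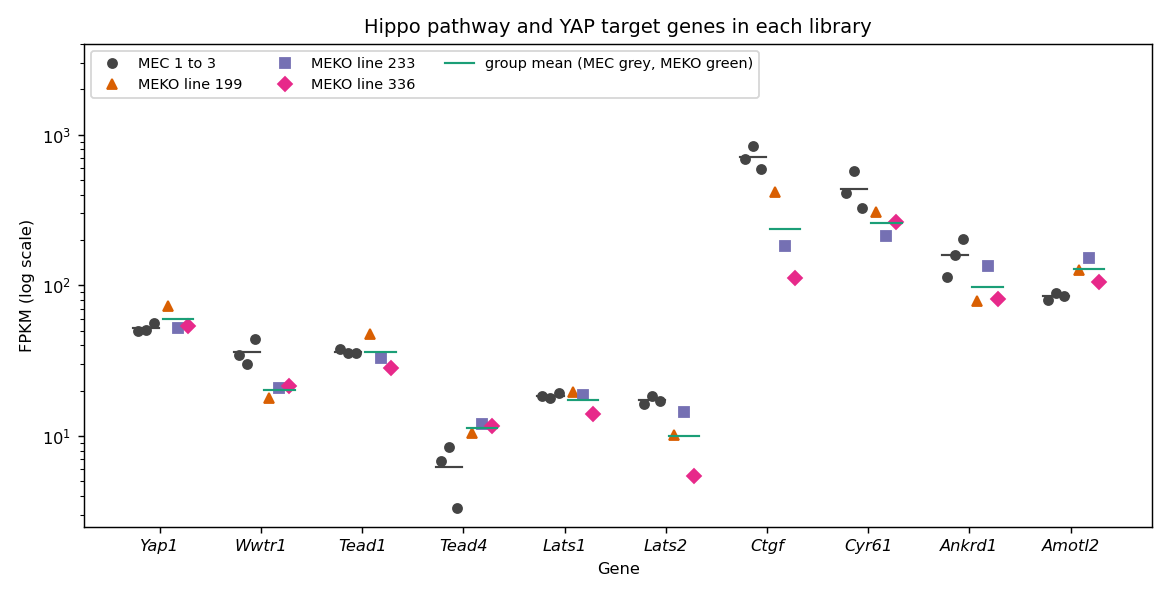
FPKM (log scale) of the 10 genes in each of the 6 libraries. Grey circles are the 3 MEC preparations, coloured symbols the 3 MEKO lines and horizontal lines the group means. Each MEKO symbol lies below the MEC circles in *Wwtr1*, *Lats2*, *Ctgf* and *Cyr61* and above them in *Tead4* and *Amotl2*.

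The coactivator genes differed from each other. *Yap1* (chr9:7931999-8004596, minus strand, GRCm38) was 49.6, 50.2 and 56.5 FPKM in MEC 1, 2 and 3 and 73.1, 52.1 and 53.5 FPKM in lines 199, 233 and 336. Line 199 was the highest library, and the other two lines lay within the MEC range. The log2 fold change was 0.17 (95% interval -0.25 to 0.60), with an adjusted p of 0.546 in limma. *Wwtr1* (chr3:57455649-57575910, minus strand) was 34.3, 29.9 and 44.0 FPKM in MEC and 17.9, 20.98 and 21.4 FPKM in the lines. The 3 lines were close together, and the highest of them was below the lowest MEC preparation. The mean was 36.1 ± 7.17 FPKM in MEC and 20.1 ± 1.91 FPKM in MEKO (SD, n = 3 each). On the log2(FPKM + 1) scale *Wwtr1* was 1.74-fold lower, a log2 fold change of -0.80 with a standard error of 0.19 and an adjusted p of 0.0446 in limma. This call lay close to its threshold: the adjusted p was 0.0595 to 0.158 when any 1 of the 6 libraries was left out, so the call was lost without each of them, while the log2 fold change stayed between -0.92 and -0.65. With sample weights it was -0.70, short of the fold a call needed, and *Wwtr1* kept its call in 5 of 14 alternatives.

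The 2 TEAD genes of the set also differed. TEAD1 and TEAD4 are DNA-binding partners of YAP and TAZ. *Tead1* (chr7:112679318-112906807, plus strand) was 37.7, 35.6 and 35.6 FPKM in MEC and 47.9, 32.8 and 28.1 FPKM in lines 199, 233 and 336. The MEC lay within a narrow range, and the lines fell on both sides of it. Its group means were both 36.3 FPKM, and the log2 fold change was -0.03 (95% interval -0.55 to 0.48, adjusted p 0.933 in limma). *Tead4* (chr6:128224288-128300823, minus strand) was 6.79, 8.45 and 3.33 FPKM in MEC and 10.5, 12.0 and 11.7 FPKM in the lines. Each line was above each MEC preparation, but the MEC themselves spread over 2.54-fold. Its log2 fold change of 0.86 (95% interval 0.12 to 1.59) did not pass the test, with an adjusted p of 0.131 in limma, and was 0.53 without MEC 3.

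The LATS kinases are the last step before YAP and TAZ. *Lats1* (chr10:7681214-7716460, plus strand) was 18.4, 17.9 and 19.3 FPKM in MEC and 19.5, 18.7 and 14.003 FPKM in lines 199, 233 and 336, which overlapped (log2 fold change -0.10, 95% interval -0.51 to 0.32, adjusted p 0.742 in limma). *Lats2*, itself a known YAP target, was 16.3, 18.3 and 17.1 FPKM in MEC and 10.1, 14.5 and 5.40 FPKM in the lines. Each line was below each MEC preparation, with line 336 at 31.3% of the MEC mean and line 233 at 83.9%. The log2 fold change of -0.82 (95% interval -1.60 to -0.04) had an adjusted p of 0.162 in limma, and was -0.47 without line 336. The entry of *Lats2* (chr14:57689662-57758388, minus strand) joined its name with that of *Xpo4*, an exportin gene, and 42.4% of its exon bases lie in the readthrough gene *Gm49361*, so its value is uncertain.

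*Ctgf* had the most negative log2 fold change of the set and the widest spread between lines. *Ctgf* and *Cyr61* encode secreted matrix proteins of the CCN family and are the most used readouts of YAP activity. *Ctgf* (chr10:24595442-24598683, plus strand) was 689, 839 and 592 FPKM in MEC and 415, 184 and 112 FPKM in lines 199, 233 and 336. The lines thus stood at 58.7%, 26.0% and 15.9% of the MEC mean, and the highest line was below the lowest MEC preparation. The log2 fold change was -1.77 (95% interval -2.88 to -0.66), and the adjusted p in limma was 0.0608, which missed the threshold. Without line 199 it was -2.28 with an adjusted p of 0.00607, and with sample weights it was -1.97 with an adjusted p of 0.00771. Of all tested entries 11.2% and 11.1% were called lower in these 2 fits, and over all alternatives the adjusted p ran up to 0.191. An antisense gene, *Gm15270*, covers 23.2% of the exon bases of *Ctgf*, and the sources used here do not say whether strand was used in counting.

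The other 3 target genes had smaller differences. *Cyr61* (chr3:145646976-145649981, minus strand) was 413, 573 and 326 FPKM in MEC and 306, 211 and 265 FPKM in the lines. The groups did not overlap, although MEC 3 and line 199 were close, and the log2 fold change was -0.72 (95% interval -1.32 to -0.12, adjusted p 0.123 in limma). *Ankrd1* (chr19:36111961-36120099, minus strand), which encodes a nuclear ankyrin-repeat protein, was 114, 160.0 and 204 FPKM in MEC and 78.9, 135 and 80.9 FPKM in the lines. Line 233 lay inside the MEC range, and the log2 fold change was -0.70 (95% interval -1.41 to 0.02, adjusted p 0.186 in limma), or -0.24 with sample weights. *Amotl2* (chr9:102716672-102733418, plus strand) encodes an angiomotin, a scaffold that binds YAP and holds it in the cytoplasm, and is both a target and an inhibitor of YAP. It was 80.2, 89.4 and 84.5 FPKM in MEC and 126, 152 and 105 FPKM in the lines. Each line was above each MEC preparation, opposite to *Ctgf* and *Cyr61*. The log2 fold change was 0.57 (95% interval 0.16 to 0.98), below the fold that a call needed, with an adjusted p of 0.0885 in limma. For the 6 genes whose groups did not overlap, the two-sided exact permutation test gave p = 0.1, the smallest value that 3 libraries against 3 can give.

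**Figure D2:**
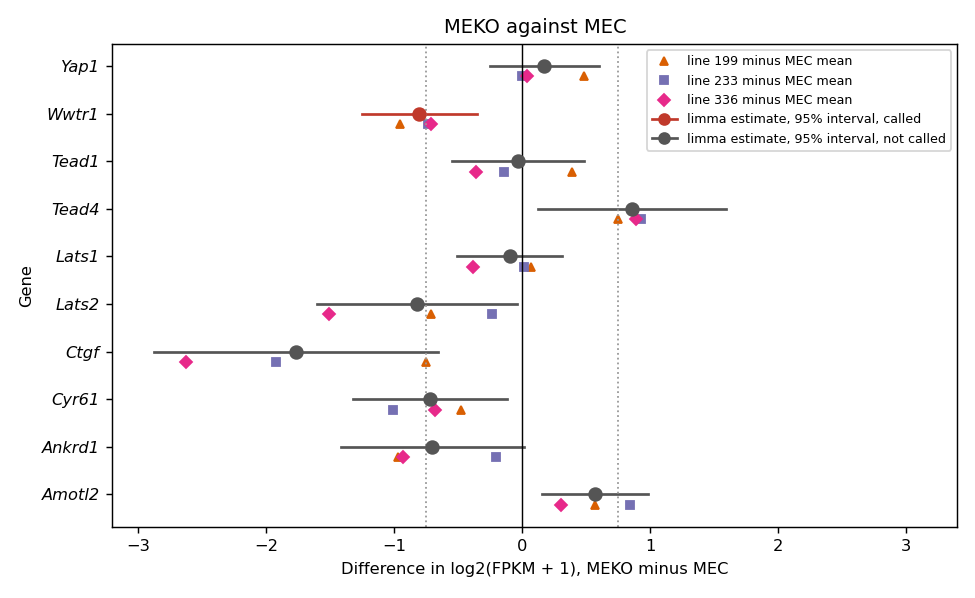
Difference in log2(FPKM + 1) between MEKO and MEC for the 10 genes. Large circles with bars are the limma estimates with their 95% intervals, small symbols the 3 lines against the MEC mean, and dotted lines the fold of 0.75 a call needed. *Wwtr1* at -0.80, in red, was the gene called, and the symbols of *Ctgf* spread from -0.75 to -2.63.

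The lines were then compared one by one with the MEC mean, with no test because each line is 1 library. In line 199, *Wwtr1*, *Ctgf* and *Ankrd1* were lower by over 0.75 on the log2 scale and no gene of the set was higher, beside 17.4% and 13.0% of all tested entries. In line 233, *Ctgf* and *Cyr61* were lower and *Tead4* and *Amotl2* were higher, beside 18.0% and 10.0%. In line 336, *Lats2*, *Ctgf* and *Ankrd1* were lower and *Tead4* was higher, beside 18.7% and 11.4%. *Ctgf* was the gene past this fold in each of the 3 lines, by a small margin in line 199, where the difference was -0.75. The histology listed in the study's source data for mice of the same numbers was adenosquamous carcinoma for 199, both types for 233 and adenocarcinoma for 336, while the design text calls all 3 lines adenosquamous, so no histology was assigned.

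The order of the levels, which FPKM allows since it is per length, changed between the groups. In MEC *Ctgf* was the highest, followed by *Cyr61*, *Ankrd1*, *Amotl2* and *Yap1*, with no overlap between neighbours in that order. *Tead1* and *Wwtr1* came next and overlapped, then *Lats1* and *Lats2*, which also overlapped, and *Tead4* was the lowest. In MEKO the 4 target genes overlapped from each to the next, in the order *Cyr61*, *Ctgf*, *Amotl2* and *Ankrd1*. *Yap1* and *Tead1* followed without overlap. *Wwtr1* and *Lats1* overlapped, as did *Tead4* and *Lats2*, now the lowest. The place of *Lats2* rests on its joined entry and is uncertain.

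Paralogs were compared within each library, 4 pairs in all. Ratios are given on FPKM, while the log2 differences and the tests were taken on FPKM + 1. The ratio of *Yap1* to *Wwtr1* was 1.45, 1.68 and 1.29 in MEC and 4.09, 2.48 and 2.504 in lines 199, 233 and 336. Each line was above each MEC preparation, by 0.98 on the log2 scale on average. The ratio of *Lats1* to *Lats2* was 1.13, 0.977 and 1.13 in MEC and 1.93, 1.30 and 2.59 in the lines, higher by 0.72. It rests on the joined entry of *Lats2*, whose value is uncertain. The ratio of *Ctgf* to *Cyr61* was 1.67, 1.46 and 1.81 in MEC and 1.36, 0.871 and 0.424 in the lines, a log2 difference of -1.05, so *Cyr61* was the more abundant of the pair in lines 233 and 336 and *Ctgf* in the other libraries. This difference was -0.60 without line 336 and -1.43 without line 199. These 3 pairs did not overlap between groups, and each had an exact permutation p of 0.1, or 0.133 adjusted over the 4 pairs. Each of these pairs holds a gene whose own FPKM did not overlap, so the ratios are not separate results. No share over all pairs of genes was computed to set beside them. The ratio of *Tead1* to *Tead4* was 5.55, 4.21 and 10.7 in MEC and 4.58, 2.74 and 2.404 in the lines, which overlapped (exact permutation p = 0.2), and their log2 difference of -0.89 was -0.58 without MEC 3.

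The sums of the gene families and their makeup were also compared. The summed FPKM of *Yap1* and *Wwtr1* was 88.2 ± 10.8 in MEC and 79.6 ± 9.83 in MEKO (SD, n = 3 each), while the share of *Yap1* in it was 59.3% ± 3.21 in MEC and 74.4% ± 5.17 in MEKO. The summed FPKM of the 4 TEAD genes was 117.5 ± 0.90 in MEC and 104 ± 24.7 in MEKO, with line 233 the lowest at 77.8. *Tead2* was the main TEAD transcript of MEC, with 51.4% to 57.8% of the sum, and had 38.0%, 23.5% and 43.4% in lines 199, 233 and 336. The share of *Tead3* was 9.27% to 10.4% in MEC and 15.9% to 19.6% in MEKO, and that of *Tead4* was 2.82% to 7.19% in MEC and 8.25% to 15.4% in MEKO. These shares did not overlap, while that of *Tead1* did, and shares within a sum are not independent of each other. The FPKM of *Tead2*, *Tead3* and *Tead4* also did not overlap. That held for 18.7% (lower) and 18.5% (higher) of all tested entries, and no such share was computed for makeup within families. *Tead2* was 59.9, 62.0 and 68.4 FPKM in MEC and 48.3, 18.3 and 46.7 in the lines, and *Tead3* was 12.1, 11.6 and 10.96 in MEC and 20.2, 14.6 and 21.1 in the lines. Neither passed the test, with log2 fold changes of -0.85 and 0.63 and adjusted p of 0.197 and 0.0807 in limma.

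**Figure D3:**
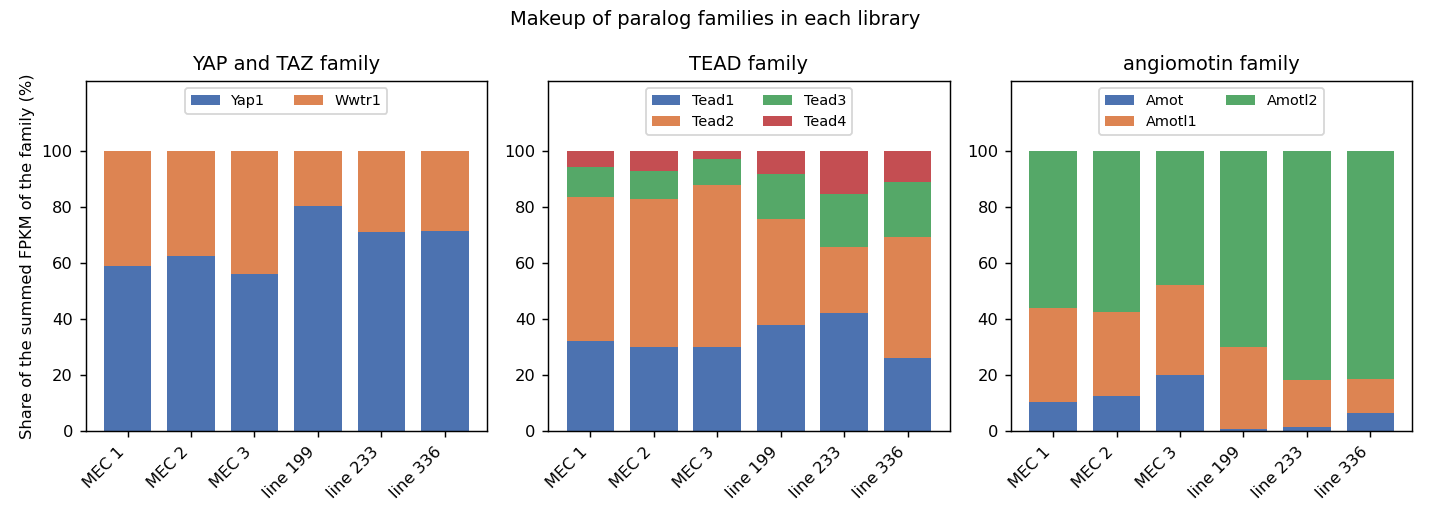
Share of each gene in the summed FPKM of its family, as stacked bars for the 6 libraries, for YAP and TAZ, the TEAD factors and the angiomotins. The bars of *Yap1* are 56.2% to 62.7% in MEC and 71.3% to 80.3% in the lines, and the bars of *Amotl2* are 47.8% to 57.6% in MEC and 69.9% to 81.5% in the lines.

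Of 40 other genes of the pathway, listed from general knowledge with earlier results of these data known, 36 were tested. Of these, 2 were called lower and 1 higher, near the 7.26% and 2.64% of all tested entries. The median log2 fold change of the 36 genes was -0.08. Upstream of the kinases, none of 13 tested genes was called in limma, and 2 were higher at an unadjusted p under 0.05, near the 12.4% of all tested entries. *Nf2*, which encodes the membrane-linked tumor suppressor merlin and had the highest mean level there, was 40.8, 40.0 and 65.4 FPKM in MEC and 103, 75.2 and 259 in lines 199, 233 and 336. Each line was above each MEC preparation and line 336 stood apart, with a log2 fold change of 1.39 and an adjusted p of 0.117 in limma.

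Among the core kinases and their cofactors, 1 of 11 tested genes was called lower and 1 higher, beside 7.26% and 2.64% of all tested entries. Both encode MAP4K kinases, which can phosphorylate LATS in parallel with MST and also act upstream of JNK. *Tnik* (MAP4K7) was 6.004, 7.67 and 8.92 FPKM in MEC and 0.371, 1.89 and 1.39 in the lines (log2 fold change -1.998, adjusted p 0.0165 in limma). *Mink1* (MAP4K6) was 11.4, 10.4 and 9.44 FPKM in MEC and 22.9, 22.4 and 15.9 in the lines (log2 fold change 0.89, adjusted p 0.0362 in limma). The groups did not overlap in either gene, which held for 18.7% (lower) and 18.5% (higher) of all tested entries. The changes ran in opposite directions. Both calls were lost without any 1 of the MEC preparations, where the adjusted p was 0.0707 to 0.0807 for *Tnik* and 0.125 to 0.132 for *Mink1* in limma, and that of *Mink1* also without line 233 (0.0823) and with upper-quartile scaling (0.0524). *Mob1a*, a LATS cofactor and the most abundant of the list, was 56.0, 55.3 and 59.6 FPKM in MEC and 70.2, 48.3 and 43.9 in the lines, which overlapped.

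Of 7 genes whose products bind YAP, TAZ or LATS, 1 was called, lower, beside 7.26% of all tested entries. *Amot*, the founding angiomotin, was 15.2, 19.5 and 35.4 FPKM in MEC and 1.22, 2.77 and 8.59 in the lines (log2 fold change -2.41, adjusted p 0.0487 in limma), opposite in direction to *Amotl2*. The summed FPKM of the 3 angiomotin genes was 158.7 ± 16.9 in MEC and 165.4 ± 31.8 in MEKO (SD, n = 3 each), and the share of *Amotl2* in it was 53.7% ± 5.22 in MEC and 77.6% ± 6.64 in MEKO. The call of *Amot* lay at its threshold and held in 5 of 14 alternatives, with an adjusted p of 0.0583 to 0.167 in limma when any library but line 336 was left out. *Ywhaz*, a 14-3-3 protein that retains phosphorylated YAP in the cytoplasm, was 308, 323 and 288 FPKM in MEC and 233, 254 and 251 in the lines, lower without overlap but not called (log2 fold change -0.32, adjusted p 0.158 in limma).

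Beside *Tead2* and *Tead3*, the TEAD partners include the vestigial-like cofactors, which compete with YAP for TEAD. None of 5 tested TEAD partner genes was called in limma, and 1 was higher at an unadjusted p under 0.05, beside 12.4% of all tested entries. Of these cofactors, *Vgll1* and *Vgll3* were chosen after their values were seen. *Vgll1* was at most 0.385 FPKM in 5 libraries and 12.6 FPKM in line 336. *Vgll3* was 17.0, 20.3 and 18.2 FPKM in MEC and 18.4, 3.43 and 1.03 FPKM in lines 199, 233 and 336. *Vgll1* thus set line 336 apart, and in *Vgll3* line 199 lay within the MEC range while the other two lines were below it.

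A list of 29 other known targets of YAP and TAZ, also written from general knowledge with earlier results known, showed no single direction. Of 28 tested, 1 was called lower and 2 higher, beside 7.26% and 2.64% of all tested entries. The median log2 fold change of the 28 was -0.38. *F3*, which encodes tissue factor, was 116, 202 and 76.9 FPKM in MEC and 23.8, 8.11 and 37.9 in lines 199, 233 and 336 (log2 fold change -2.57, adjusted p 0.0443 in limma). *Asap1*, an Arf GTPase-activating protein, was 17.3, 22.1 and 25.0 FPKM in MEC and 57.8, 78.8 and 48.6 in the lines (log2 fold change 1.47, adjusted p 0.0154 in limma). *Axl*, a receptor tyrosine kinase, was 93.7, 104 and 65.5 FPKM in MEC and 188, 282 and 212 in the lines (log2 fold change 1.37, adjusted p 0.0197 in limma). In these 3 genes the groups did not overlap. Of the 28 tested, 4 were lower and 6 higher without overlap, beside 18.7% and 18.5% of all tested entries. *F3* had a log2 fold change of the sign of those of *Ctgf* and *Cyr61*, and those of *Asap1* and *Axl* had the sign of that of *Amotl2*. The call of *F3* was lost without any library but line 336 (adjusted p 0.0546 to 0.146 in limma), that of *Axl* without any 1 of the MEC preparations (0.058 to 0.0793), and that of *Asap1* without MEC 1 (0.0748) or MEC 2 (0.0704).

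The count of targets called lower depended on line 199. Without it, 8 targets were called lower in place of 1: *Igfbp3*, *Fjx1*, *Arhgef17*, *Rbms3*, *Edn1*, *Anxa1*, *Lpp* and *Tagln*. The share of all tested entries called lower also rose, from 7.26% to 11.2%. These 8 were named after their values were seen. *Igfbp3*, which encodes an IGF-binding protein, was 60.9, 41.8 and 67.4 FPKM in MEC and 78.3, 0.137 and 2.06 FPKM in lines 199, 233 and 336. *Tagln*, which encodes the actin-binding protein transgelin of contractile cells, was 559, 792 and 361 FPKM in MEC and 184, 1.18 and 1.46 FPKM in these lines. In the same libraries the myoepithelial markers summed to 2276, 10.6 and 58.7 FPKM, and the fibroblast markers to 1111, 2.45 and 4.23. Members of both lists went each way against MEC in line 199, so these sums do not give a share of cells. *Ctgf* was also highest in line 199 among the lines. In such bulk cultures fewer cells of a type and less RNA per cell cannot be told apart, and the part of cell makeup in the target values was not tested.

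**Figure D4:**
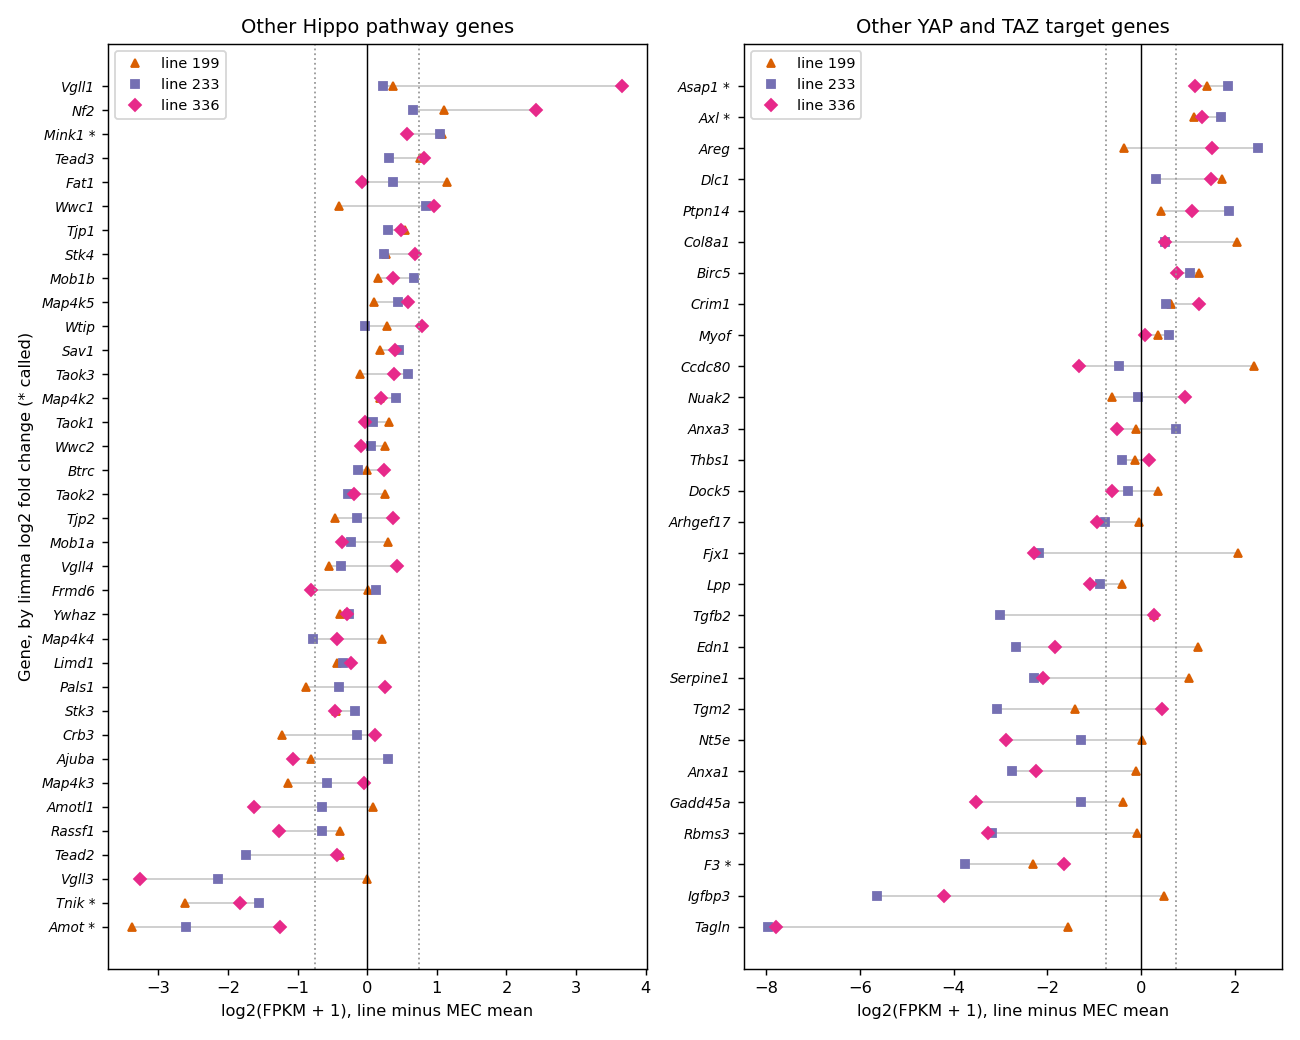
Difference in log2(FPKM + 1) between each MEKO line and the MEC mean for the 36 tested other pathway genes (left) and the 28 tested other targets (right), ordered by the limma log2 fold change. Symbols are the 3 lines, grey bars their range, dotted lines the fold of 0.75, and an asterisk marks a call. The triangles of line 199 stand apart from the other two lines in targets such as *Igfbp3* and *Tagln*.

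Position on the chromosome was a property that the choice of genes had not used. For each gene, the tested protein-coding genes that start within 1 Mb were collected, 6 to 14 a gene, and the median of their log2 differences was taken in each line. Around *Yap1* the median of 12 neighbours was -0.35, -1.83 and -1.77 in lines 199, 233 and 336, while *Yap1* itself was at 0.48, 0.00 and 0.04. The neighbours include the matrix metalloproteinase genes *Mmp3*, *Mmp10*, *Mmp12* and *Mmp13*, the apoptosis inhibitors *Birc2* and *Birc3* and the progesterone receptor gene *Pgr*. The median over all tested entries was between 0.00 and 0.02 in the 3 lines, so in lines 233 and 336 *Yap1* lay near its MEC level while the median of its neighbours lay well below it. Around *Ctgf* the 11 neighbours had medians of -0.10, -0.33 and -0.28, beside -0.75, -1.92 and -2.63 for *Ctgf*. Around *Wwtr1* the 7 neighbours had medians of -0.34, -0.16 and -0.48, beside -0.96, -0.74 and -0.71 for *Wwtr1*. Around *Lats2* the 11 neighbours had medians of -0.73, -0.18 and -0.66, beside -0.71, -0.24 and -1.51 for *Lats2*. In lines 199 and 233 the joined entry of *Lats2* thus stood at the level of its neighbours. No copy number was measured in these files. The study's exome sequencing of MEKO tumor cell lines found many amplified and deleted segments, but those data were not used here. The part of copy number in these values was not tested.

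**Figure D5:**
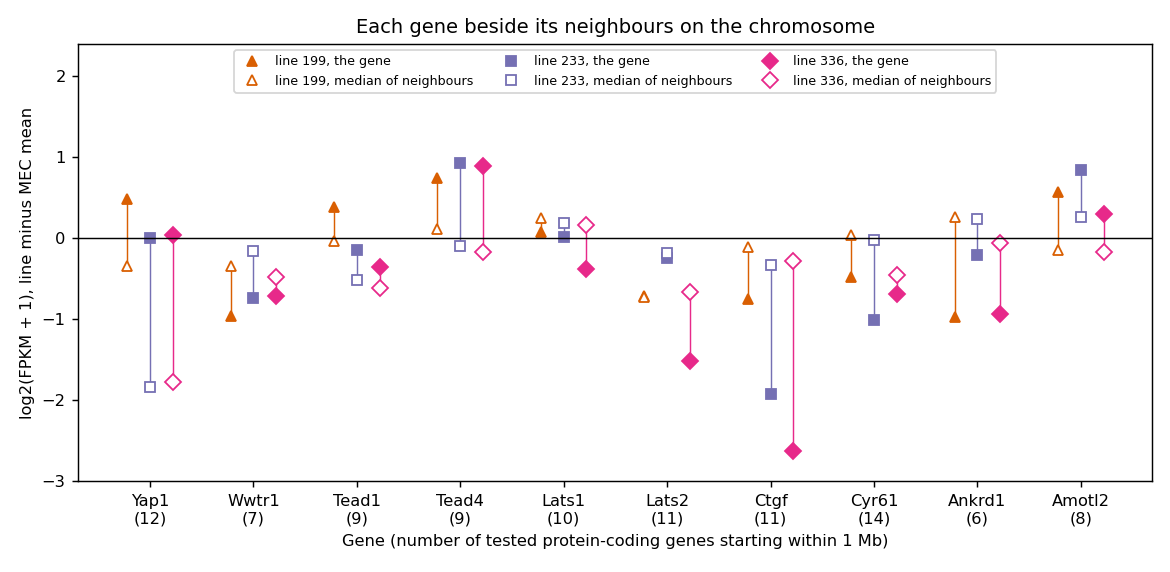
Difference in log2(FPKM + 1) from the MEC mean of each of the 10 genes (filled symbols) and the median of its tested protein-coding neighbours within 1 Mb (open symbols), in the 3 MEKO lines. The number of neighbours is under each name. *Yap1* lies above its neighbours in each line, and *Ctgf* below them.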

How the data were processed

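Paired-end RNA-seq reads were trimmed and aligned to mm10 with Bowtie2 and TopHat2 (2.0.14) by the authors, and the deposited values are FPKM from Cufflinks (2.2.1), normalized for transcript length and library size. Libraries of other genotypes were not used here. The genes and the hand-written lists were chosen with earlier results of these data known. Entries with a mean FPKM under 1 were left out, a pseudocount of 1 was added, and MEKO was compared with MEC with limma 3.58.1 in R 4.3.3 (mean-variance trend, Benjamini-Hochberg adjustment over 12461 entries). The study's Cuffdiff test needs reads and was not run. FPKM carry no read numbers, so depth is unknown and no counting interval or floor was computed; relative depth, read from the steps of small values, was 0.92 to 1.30 times that of MEC 1. Single ratios were compared by two-sided exact permutation tests. Positions are those of GENCODE M21 on GRCm38.

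The text names the 10 genes, *Mapk8* and *Mapk9*, *Tead2* and *Tead3*, each called gene of the lists (at most 8 targets in each direction) and the most abundant gene of each pathway list. Marker genes and chromosomal neighbours are named as examples. Other genes are marked as chosen after their values were seen. Of the 6 libraries, each is a separate preparation or line, and nothing pairs a line with a MEC preparation.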

Additional observations from a re-analysis of the deposited data

How the results depend on the processing

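With 3 libraries a group, the call in the set lay close to the threshold, and a lone library left out changed it. The count of genes called lower, 1 as reported, was 0 without a filter on low values and 0 without the mean-variance trend, and 0 to 1 when 1 library was left out, where the 1 call without line 199 was *Ctgf* and not *Wwtr1*, as it was with sample weights. The count of genes called higher was 0 under each of the 16 alternatives. Of the other pathway genes, 2 called lower as reported, 1 was called with a pseudocount of 0.1, without a filter and without the trend, and 0 with a mean of at least 5 FPKM, where *Tnik* was not tested. Leaving out 1 library gave 0 (any MEC) to 2 (any line). The 2 were *Tnik* and *Vgll3* without line 199, *Tnik* and *Ajuba* without line 233, and *Tnik* and *Amot* without line 336. *Ajuba* was named after its values were seen. Of the same list of pathway genes, 1 called higher as reported, 0 were called with upper-quartile scaling, 2 with sample weights and 0 to 2 with 1 library left out. The 1 call without line 233 was *Tead3* and not *Mink1*. Of the other targets, 1 called lower as reported, 0 were called without a filter, 7 with sample weights and 0 to 8 with 1 library left out. The share of all tested entries called lower was 7.26% as reported, 11.1% with sample weights and 11.2% without line 199. The 2 targets called higher became 0 to 3. The direction of the log2 fold change reversed for *Tead1* without line 233 (0.02) and without line 336 (0.13), with a range of -0.25 to 0.13 over libraries left out, and for *Lats1* without line 336 (0.044), with a range of -0.18 to 0.044. The genes past the fold, 3, 4 and 4 in lines 199, 233 and 336, were 5 in line 199 with a pseudocount of 0.1, and 0, 2 and 2 with a log2 fold of 1. The share of all tested entries past the fold under these settings was not computed. With 2 Mb in place of 1 Mb, the mean of the neighbour medians moved from -0.05 to 0.20 for *Tead4* and from 0.20 to 0.087 for *Lats1*. Quantile normalization moved the median of all entries to 0.10. Each symbol stood on 1 entry, so a sum over entries changed nothing. The cause of these changes was not tested. No paired analysis was possible because the groups share no replicate numbers.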
